A study of Mus musculus with 26 samples.

Results

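Germline and meiotic genes were followed in mouse embryonic stem cells (mESCs) that were wild type (WT) or carried a knockout of Hmces (HMCES-KO). The set was a list of 46 genes, matched by gene symbol, out of the 25239 genes that the tables of untreated cells listed. It held 11 genes of the synaptonemal complex, meiotic cohesin and chromosome axis, 8 recombination genes, 15 genes of the piRNA pathway and transposon control, 6 germ cell RNA-binding proteins, receptors and early factors, and 6 other spermatogenic genes. The tables of untreated cells listed all 46, and 37 stood in all 4 tables of treated cells.

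As background, the synaptonemal complex is the protein zipper that joins homologous chromosomes in meiosis, and meiotic cohesin and axis proteins hold the chromatin loops to which it is attached. Meiotic recombination starts from programmed DNA breaks, which are repaired on the homologous chromosome. The piRNA pathway uses small RNAs bound to PIWI proteins to silence transposons in germ cells. Many germline genes carry CpG-rich promoters that are silenced by DNA methylation in somatic tissue, and in mESCs a polycomb complex with E2F6, MGA and MAX also represses part of them. DNA methylation was not measured in these libraries. HMCES is a protein that forms a crosslink with abasic sites in single-stranded DNA.

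All cells were C57BL/6 mESCs per the labels, grown on gelatin in medium with 15% serum. The labels name 2 knockout lines, HMCES-KO1 and HMCES-KO2, whereas the count table names KO7 and KO8. The deposited name of the count table lists KO1 before KO2, and its columns run KO7 before KO8. That order would make KO7 HMCES-KO1 and KO8 HMCES-KO2, but no source at hand states this. Whether a line is 1 clone was not stated either. The count table held 2 WT, 2 KO7 and 2 KO8 untreated libraries. A separate TPM table held 2 WT libraries, whose columns carry the name CCE, and 2 HMCES-KO libraries, all untreated. The HMCES-KO columns carry the names K81 and K82, which resemble KO8, but their line is not stated. In 4 further TPM tables, cells had received, for 2 h, activin A at 50 ng/ml (a ligand of the nodal/activin pathway), 10 µM SB431542 (an inhibitor of its receptors), 10 ng/ml BMP4 (a ligand of the BMP pathway) or 50 nM LDN193189 (an inhibitor of BMP receptors). Each of these 4 tables held 2 WT libraries, 1 of HMCES-KO1 and 1 of HMCES-KO2. The labels do not tell whether replicates were cultured separately, so the p-values reflect the spread among libraries, which may be technical.

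The libraries of the count table held 9571113 to 13512922 counts. TPM (a level per gene length, on a common total) rested on whole reads recovered as 8524110 to 10037100 for untreated and 4074710 to 5463810 for treated libraries. Hmces itself was at 24.1% to 37.0% of the WT mean in the 4 knockout libraries of the count table and at 21.2% and 22.1% in those of the untreated TPM table. It was at 51.7% to 64.1% in HMCES-KO1 and at 25% to 34% in HMCES-KO2 after treatment. No source at hand states which part of Hmces was deleted, so residual reads do not measure the protein. All 9 pluripotency markers were detected in every table, with a summed level of 14800 to 14952 TPM in WT and 14087 to 14439 TPM in the knockout libraries of the count table. The 8 endoderm markers summed to 89.4 to 95.9 TPM in WT and 23.2 to 39.0 TPM in knockout libraries of that table, and in each of the other 5 tables their sum was also lower in every HMCES-KO than in every WT library. The 6 fibroblast markers summed to 62.7 to 62.8 TPM in WT and 17.5 to 26.5 TPM in knockout libraries of the count table. Most of this sum was Thy1, at 54.0 and 56.1 TPM in WT and 15.3 to 23.7 TPM in knockout libraries. Col1a1 was at 1.39 and 1.09 TPM in WT, and Col1a2, Col3a1 and Postn were below 1 TPM throughout. Of 5 gonadal soma markers, 2 could be tested in that table, 1 called higher and 1 lower. Of 5 trophectoderm markers tested, 0 passed by edgeR in the mean of KO7 and KO8, with 4 at an unadjusted p below 0.05. The lines went in opposite directions there: Krt18 and Krt7 were called lower than WT in KO7, and Krt18 and Krt8 higher in KO8. None of the 5 markers of 2-cell-like cells was high enough to be tested there. The part of these marker differences in the results that follow was not tested. In bulk RNA, fewer cells of a type and less RNA per cell cannot be told apart.

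In untreated WT cells most of the germline genes were transcribed at low levels. In the untreated TPM table, 14 of the 46 reached a WT mean of 10 TPM, 22 lay from 1 to 10 TPM and 10 were below 1 TPM, and the median was 5.02 TPM. The highest WT means belonged to Syce2, a central element protein of the synaptonemal complex, at 109 ± 2.04 TPM (SD, n = 2), and to Hsf2bp, a protein that helps bring BRCA2 to meiotic breaks, at 95 ± 4.83 TPM. Rpl10l, a ribosomal protein gene of the testis, followed at 83.4 ± 4.48 TPM, Kit, the receptor of stem cell factor, at 59.5 ± 1.06 TPM, and Tex19.1, a gene that restrains retrotransposons in germ cells, at 47.3 ± 0.124 TPM. Neighbours in this order did not overlap between their WT libraries, of which there were 2 each. The RNA-binding, receptor and early factors had the highest group median (20.7 TPM, all 6 above 1 TPM) and the recombination genes the lowest (1.63 TPM, 3 of 8 below 1 TPM).

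Spo11, the enzyme that makes the meiotic breaks, had 0 counts in all 6 libraries of the count table, which allows at most 0.222 to 0.313 CPM (counts scaled to a common library total) per library, and it was listed at 0 in all 4 untreated TPM libraries. Mei1, Tdrd6, Tdrd9, Asz1 and Tex101 were also too low to be tested in any of the 3 data sets. That left 40 members tested in at least 1 data set, of which 29 passed the test in at least 1 and 11 did not. Of all genes, 40.6% passed in the count table, 16% in the untreated TPM table and 34.5% in the treated mean. The share of all genes that passed in at least 1 was not computed, so the 29 have no background to be set against.

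The 250 bases before the annotated start of 6 members are shown here, because these members carried the changes described below: 4 that were lower and 2 that were higher in HMCES-KO libraries. The sequences are those of RefSeq on GRCm38.p6, read 5′ to 3′ on the strand of the gene. Capitals mark the E-box CACGTG, which MAX-type factors bind, or the E2F-type motif TTCCCGC on either strand.
Stag3 (chr5:138280259-138280508, plus strand): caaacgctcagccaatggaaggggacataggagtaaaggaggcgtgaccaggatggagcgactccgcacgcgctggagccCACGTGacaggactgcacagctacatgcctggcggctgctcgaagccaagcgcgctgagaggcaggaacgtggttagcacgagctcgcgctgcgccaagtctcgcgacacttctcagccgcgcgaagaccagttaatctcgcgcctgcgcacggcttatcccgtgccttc
Mov10l1 (chr15:88982744-88982993, plus strand): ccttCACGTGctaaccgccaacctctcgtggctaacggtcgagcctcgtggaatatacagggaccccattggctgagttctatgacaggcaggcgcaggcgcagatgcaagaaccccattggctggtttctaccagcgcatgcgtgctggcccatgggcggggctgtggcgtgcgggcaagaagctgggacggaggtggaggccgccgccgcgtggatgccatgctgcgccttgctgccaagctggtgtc
Rec114 (chr9:58741560-58741809, minus strand): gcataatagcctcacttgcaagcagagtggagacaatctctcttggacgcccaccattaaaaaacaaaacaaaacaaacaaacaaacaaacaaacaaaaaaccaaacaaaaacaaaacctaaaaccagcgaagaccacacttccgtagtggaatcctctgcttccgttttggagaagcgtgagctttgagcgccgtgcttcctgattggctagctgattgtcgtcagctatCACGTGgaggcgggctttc
Sohlh2 (chr3:55181794-55182043, plus strand): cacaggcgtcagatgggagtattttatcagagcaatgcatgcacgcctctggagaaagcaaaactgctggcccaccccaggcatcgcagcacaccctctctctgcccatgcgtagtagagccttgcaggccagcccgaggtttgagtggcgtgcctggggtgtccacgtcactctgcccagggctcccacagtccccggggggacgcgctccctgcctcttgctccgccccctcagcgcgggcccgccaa
Hsf2bp (chr17:32034509-32034758, minus strand): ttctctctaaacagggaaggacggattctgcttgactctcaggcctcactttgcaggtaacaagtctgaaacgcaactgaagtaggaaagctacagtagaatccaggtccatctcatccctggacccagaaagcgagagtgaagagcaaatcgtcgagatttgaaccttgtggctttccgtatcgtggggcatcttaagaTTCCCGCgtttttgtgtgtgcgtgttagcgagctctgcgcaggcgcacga
Rpl10l (chr12:66284402-66284651, minus strand): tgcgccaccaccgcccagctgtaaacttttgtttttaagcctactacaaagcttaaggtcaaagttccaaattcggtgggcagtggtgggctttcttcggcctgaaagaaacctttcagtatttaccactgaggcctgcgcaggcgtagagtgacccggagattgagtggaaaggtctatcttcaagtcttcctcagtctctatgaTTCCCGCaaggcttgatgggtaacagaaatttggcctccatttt

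Stag3, Mov10l1 and Rec114 each held 1 E-box in this window, beginning 170, 246 and 19 bases before the start. Hsf2bp and Rpl10l each held 1 E2F-type motif, beginning 50 and 44 bases before the start, and Sohlh2 held neither motif. RefSeq promoters matched 41 of the 46 members; Dnd1, Piwil2, Spo11, Tdrd6 and Tex15 were not matched. The E-box stood in 15 of the 41 (36.6%), against 6.05% of 27025 promoters of the same length. It stood before Brdt, Ddx4, Fkbp6, Hormad1, Mael, Mov10l1, Rec114, Slc25a31, Stag3, Stk31, Sycp1, Sycp3, Taf7l, Tdrd1 and Tdrd9. The E2F-type motif stood in 9 of the 41 (22%), against 3.84% of all promoters, namely those of Ddx4, Hormad1, Hsf2bp, Msh5, Rpl10l, Smc1b, Sycp3, Tdrd5 and Tex14. The members had a median of 14 CpG sites in the window and all promoters a median of 6, and the shown promoters ranged from 8 in Rpl10l to 26 in Stag3. In the count table the 13 tested members with an E-box had a median log2 fold change of -0.79 and the 23 without one a median of -0.45. The medians were -0.47 and -0.52 in the untreated TPM table and -0.38 and -0.17 in the treated tables, so the order was not the same in all 3. Each of the motifs contains a CpG, and the promoters compared were not matched for CpG number. The part of CpG number in the motif shares was not tested. The matches describe letters in a window and do not show binding.

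In the untreated count table more of the germline genes were called lower than higher in HMCES-KO. Of 39 tested members, 23 passed the test (adjusted p below 0.05 by edgeR's quasi-likelihood test over all genes) in the mean of KO7 and KO8 against WT, 3 of them higher and 20 lower. The background was large: 40.6% of the 13475 genes tested passed, 20.8% as lower and 19.9% as higher. The median log2 fold change of the tested members was -0.51, and that of all genes was -0.01. Among the 20 lower members, Syce3, Msh5 and Brdt reached 1 CPM in both libraries of a group only in WT. They thus entered the test through WT alone, which favours a lower call. With at least 1 CPM required in 4 libraries, 20 of 34 tested members and 41% of all genes passed. With the 4 knockout libraries taken as 1 group, whose spread then includes the difference between the lines, 8 of 39 members and 11.5% of all genes passed, with Hsf2bp and Rpl10l higher and Sohlh2, Piwil4, Stag3, Piwil2, Smc1b and Tex15 lower.

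**Figure D1:**
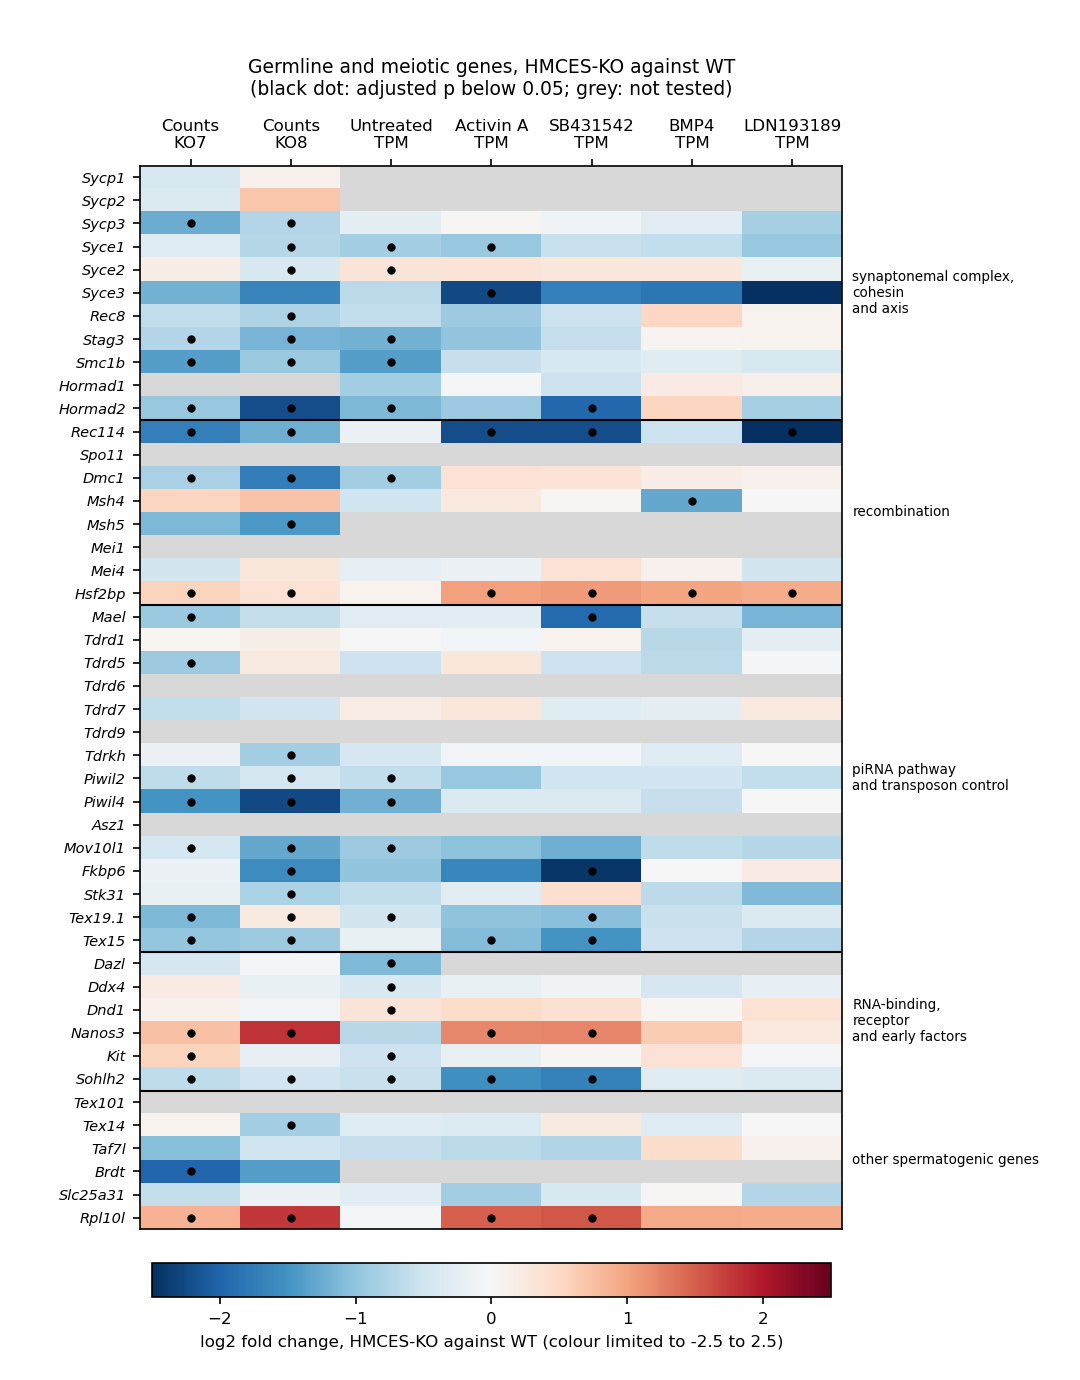
Log2 fold changes of HMCES-KO against WT for the 46 germline and meiotic genes (one line per gene, grouped by role) in the 2 lines of the count table, the untreated TPM table and the 4 treated tables; colour gives the log2 fold change, a black dot marks an adjusted p below 0.05 and grey marks genes not tested. Blue (lower in HMCES-KO) fills most of the first 3 columns, whereas Hsf2bp is red with a dot in 6 of the 7 columns.

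Of the synaptonemal, cohesin and axis genes, 7 of 10 tested were lower and none was higher, with a median of -0.82. Of the 7, Syce3 entered the test through WT alone. Stag3, a subunit of meiotic cohesin, had 56.6 and 54.4 CPM in WT, 33.2 and 30.4 in KO7, and 25.2 and 22.5 in KO8, a log2 fold change of -0.95 ± 0.08 (adjusted p = 1.83e-08). Every knockout library lay below both WT libraries, and KO8 lay below KO7. Smc1b, the meiotic SMC subunit of the same ring, had 21.8 and 16.7 CPM in WT, 6.51 and 7.84 in KO7, and 10 and 9.62 in KO8, which is -1.15 ± 0.14 (adjusted p = 1.8e-06). The knockout libraries again formed a block below WT. Rec8, the meiotic kleisin of cohesin, had 4.79 and 4.0 CPM in WT, 2.52 and 3.02 in KO7, and 2.72 and 2.31 in KO8 and fell by 0.69 ± 0.24 (SE) on the log2 scale.

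Hormad2, an axis protein that monitors unpaired chromosomes, had 5.8 and 4.79 CPM in WT, 2.66 and 2.61 in KO7, and 0.94 and 1.25 in KO8, a log2 fold change of -1.57 ± 0.25 (adjusted p = 4.73e-05). Its 3 groups did not overlap. Syce1, a central element protein, had 13.7 and 14.3 CPM in WT, 9.92 and 11.9 in KO7, and 7.63 and 8.76 in KO8, with all knockout libraries below WT, and changed by -0.51. Syce3, another central element protein, had 1.51 and 1.1 CPM in WT, 0.888 and 0.101 in KO7, and 0.313 and 0.481 in KO8, which rests on 1 to 18 counts per library and gave -1.41 ± 0.52 (adjusted p = 0.0336). Sycp3, which builds the axial element, had 6.81 and 5.99 CPM in WT, 3.33 and 1.61 in KO7, and 4.7 and 2.79 in KO8 and changed by -0.99 ± 0.25 (adjusted p = 0.00308). Its exons overlap those of Chpt1 on the opposite strand over 160 bases, and no strand setting of the counting is stated. Syce2, the most abundant member, had 57.8 and 54.3 CPM in WT, 59.7 and 59 in KO7, and 43 and 40.8 in KO8 and did not pass in the mean of the lines (-0.11), and the KO8 libraries alone lay below both WT libraries.

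**Figure D2:**
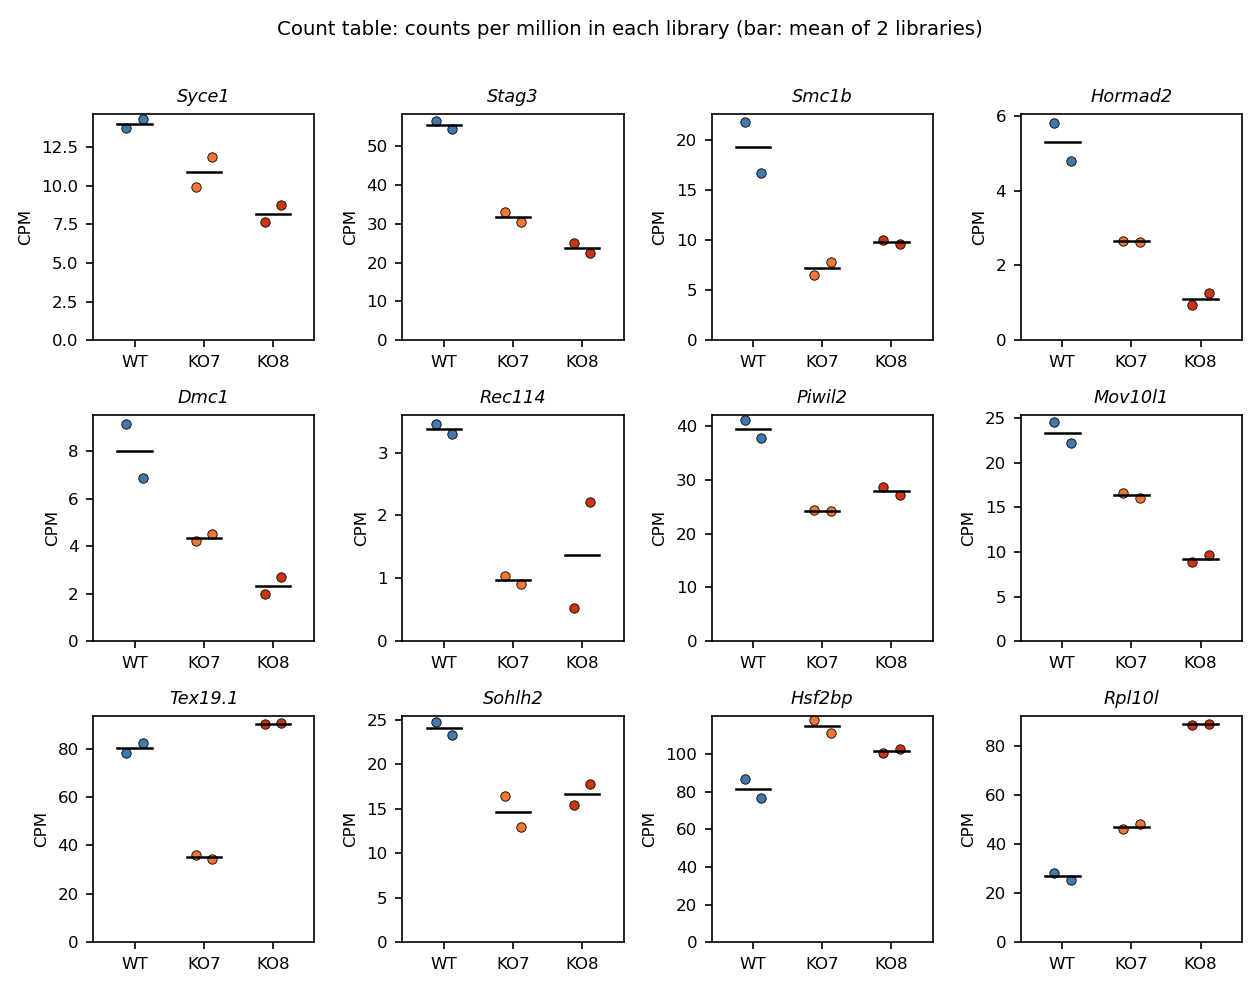
CPM in each of the 6 untreated libraries of the count table for 12 germline genes; points are libraries, the bar is the mean of 2 libraries, and each vertical axis starts at 0. Syce1, Stag3, Smc1b, Hormad2, Dmc1, Rec114, Piwil2, Mov10l1 and Sohlh2 are lower in all 4 knockout libraries than in WT, Hsf2bp and Rpl10l are higher in all 4, and Tex19.1 is at 34.3 and 36.1 CPM in KO7 but at 90.0 and 90.5 CPM in KO8.

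Among recombination genes, 3 of 6 tested were lower and 1 was higher. Of the 3, Msh5 entered the test through WT alone. Dmc1, the meiotic recombinase that carries out strand exchange, had 9.16 and 6.89 CPM in WT, 4.22 and 4.53 in KO7, and 1.99 and 2.69 in KO8, a log2 fold change of -1.27 ± 0.20 (adjusted p = 4.84e-05). WT, KO7 and KO8 did not overlap, and KO8 was the lowest. Rec114, a partner of the break machinery, had 3.45 and 3.3 CPM in WT, 1.04 and 0.905 in KO7, and 0.522 and 2.21 in KO8 and changed by -1.46 ± 0.35 (adjusted p = 0.0026). The knockout libraries all lay below WT, with 1 KO8 library close to it. The exons of Rec114 overlap 96 bases of Nptn on the opposite strand. Msh5, which stabilises recombination intermediates, rested on 3 to 16 counts per library, had 1.34 and 1.2 CPM in WT, 0.666 and 0.402 in KO7, and 0.627 and 0.289 in KO8, and changed by -1.28 ± 0.45 (adjusted p = 0.029).

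Hsf2bp was the recombination gene that rose. It had 86.5 and 76.6 CPM in WT, 118 and 111 in KO7, and 100.4 and 103 in KO8, so that each knockout library was above both WT libraries, and changed by 0.46 ± 0.06. Mei4, a partner of Rec114, and Msh4, the partner of Msh5, did not pass the test, at -0.09 and 0.62.

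In the piRNA pathway and transposon control, 7 of 12 tested members were lower and none was higher, and the median was -0.54. Piwil4, a PIWI protein that directs DNA methylation of transposons, had the largest change of all members, from 5.71 and 5.79 CPM in WT, 2.37 and 1.41 in KO7, and 1.04 and 1.25 in KO8, with -1.88 ± 0.26 (adjusted p = 1e-05). All knockout libraries were below WT and the KO8 pair was lowest. Piwil2, the PIWI protein that takes up primary piRNAs, had 41.1 and 37.7 CPM in WT, 24.3 and 24.1 in KO7, and 28.6 and 27.2 in KO8 and fell by 0.54 ± 0.08 (SE) on the log2 scale. Mov10l1, the RNA helicase that feeds precursors into the pathway, had 24.5 and 22.2 CPM in WT, 16.7 and 16.1 in KO7, and 8.88 and 9.62 in KO8, a change of -0.87 ± 0.11. The groups of Mov10l1 did not overlap, with KO7 between WT and KO8.

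Tex15, which takes part in piRNA-guided transposon silencing, had 10.8 and 7.89 CPM in WT, 4.74 and 4.32 in KO7, and 6.06 and 3.66 in KO8 and changed by -0.94 ± 0.20 (adjusted p = 7.36e-04). Mael, a factor of piRNA production and transposon silencing, had 4.62 and 4.99 CPM in WT, 2.37 and 2.41 in KO7, and 4.39 and 1.83 in KO8 and changed by -0.76. One KO8 library of Mael lay close to WT. Tdrkh, a Tudor protein that holds PIWI proteins at mitochondria, had 10.1 and 9.39 CPM in WT, 10.1 and 6.44 in KO7, and 5.02 and 5.48 in KO8 and changed by -0.49, with 1 KO7 library at the WT level.

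Tex19.1 went in opposite directions in the lines. It had 78.1 and 82.1 CPM in WT, 36.1 and 34.3 in KO7, and 90 and 90.5 in KO8. The KO7 libraries lay far below WT (-1.11 ± 0.08 (adjusted p = 2.1e-09)) and the KO8 libraries lay just above it (0.22 ± 0.07 (adjusted p = 0.0208)), so the mean of both lines, -0.45, describes neither.

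Of the RNA-binding, receptor and early factors, 1 of 6 rose and 1 fell, with a median of 0.01. Sohlh2, a helix-loop-helix transcription factor of early spermatogonia and oocytes, had 24.8 and 23.3 CPM in WT, 16.4 and 13 in KO7, and 15.5 and 17.8 in KO8 and fell by 0.55 ± 0.11 (SE) on the log2 scale. Both lines lay below WT without overlap. Nanos3, an RNA-binding protein that keeps primordial germ cells alive, had 2.77 and 2.9 CPM in WT, 4.88 and 4.02 in KO7, and 8.15 and 11 in KO8, a log2 fold change of 1.27 ± 0.22 (adjusted p = 1.51e-04). Nanos3 was above WT in all knockout libraries and highest in KO8. Dazl, Ddx4, Dnd1 and Kit did not pass, with log2 fold changes from -0.22 for Dazl to 0.17 for Kit.

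Among the other spermatogenic genes, Rpl10l rose and Tex14 and Brdt fell, and Brdt entered the test through WT alone. Rpl10l had 28.4 and 25.6 CPM in WT, 46.2 and 48.2 in KO7, and 88.7 and 88.9 in KO8, a log2 fold change of 1.32 ± 0.08 (adjusted p = 1.59e-10). The 3 groups were far apart, in the order WT, KO7 and KO8. Rpl10l is a gene of 1 exon that arose as a copy of the X-linked Rpl10, so reads could be shared between them. Rpl10 did not pass the same test (0.05 ± 0.09 (adjusted p = 0.665)). Tex14, which keeps the bridges between germ cells open, had 44.5 and 35.5 CPM in WT, 41.4 and 39.4 in KO7, and 19.6 and 23.1 in KO8 and fell by 0.39 ± 0.10 (SE) on the log2 scale, with only the KO8 libraries below both WT libraries. Brdt, a bromodomain protein of male germ cells, rested on 1 to 25 counts per library, had 2.1 and 1.1 CPM in WT, 0.296 and 0.503 in KO7, and 0.104 and 1.06 in KO8, and changed by -1.68 ± 0.51 (adjusted p = 0.0127).

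Each line was also set against WT alone. In KO7, 19 members passed (4 higher, 15 lower; 38.2% of all genes passed), and in KO8, 23 passed (4 higher, 19 lower; 38.9% of all genes, 19.7% as lower and 19.3% as higher). DESeq2 called 15 of 43 members and 21.9% of all genes in KO8. Kit rose in KO7 (0.56) and Tdrd5, a Tudor protein of the piRNA pathway, fell there (-0.90). Fkbp6, a co-chaperone of the piRNA pathway, and Stk31 fell in KO8 (-1.57 and -0.80), as did Syce2 (-0.37). These 2 comparisons share their WT libraries.

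The lines differed from each other at many of these genes. In KO8 against KO7, 16 of 39 members passed, 5 higher and 11 lower, where 28.2% of all genes passed, 14.3% as lower and 13.9% as higher. Tex19.1 was higher in KO8 by 1.33 ± 0.08 (adjusted p = 9.92e-11), Tdrd5 by 1.13 ± 0.22 (adjusted p = 5.03e-04), Nanos3 by 1.07 ± 0.22 (adjusted p = 8.24e-04), Rpl10l by 0.90 ± 0.08 and Mei4 by 0.74 ± 0.21. Lower in KO8 were Fkbp6 (-1.43 ± 0.47 (adjusted p = 0.0283)), Hormad2 (-1.27 ± 0.36 (adjusted p = 0.0118)), Tex14 (-0.94 ± 0.12 (adjusted p = 3.22e-06)), Dmc1 (-0.91 ± 0.28), Mov10l1 (-0.84 ± 0.14), Kit (-0.77 ± 0.09), Tdrkh (-0.70 ± 0.22), Syce2, Stag3, Ddx4 and Hsf2bp. The Tdrd5 libraries read 6.72 and 7.79 CPM in WT, 3.4 and 4.02 in KO7, and 8.67 and 7.7 in KO8, so that KO7 lay below WT while KO8 did not. DESeq2 called 9 of 43 members and 15.3% of all genes in this comparison. Leaving out single libraries gave 8 to 18 members, and 14.5% to 37% of all genes. Of the 8 endoderm markers, 5 were also lower in KO8 than in KO7.

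The untreated TPM table held separate WT and HMCES-KO libraries, and here too more of the germline genes were called lower than higher. Limma on log2(TPM + 1) called 15 of 36 tested members, 2 higher and 13 lower, where 16% of the 13314 genes tested passed, 10.2% as lower and 5.8% as higher. The median log2 fold change on this scale was -0.52 for the members and -0.06 for all genes. The count rested on single libraries: it was 3 without WT replicate 1 (4.76% of all genes) and 4 without WT replicate 2 (5% of all genes). EdgeR on the recovered reads called 17 of 33, 2 higher and 15 lower, and 28% of all genes. A fold change on the log2(TPM + 1) scale understates the change of low genes.

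Of the synaptonemal, cohesin and axis genes, 4 of 9 tested fell and 1 rose. Smc1b had 8.82 and 7.72 TPM in WT and 2.56 and 2.58 in HMCES-KO, a log2 fold change of -1.37 ± 0.17 (adjusted p = 0.0073). Stag3 had 34.9 and 33.9 TPM in WT and 15.3 and 13.9 in HMCES-KO, a change of -1.19 ± 0.09 (adjusted p = 0.00276). Hormad2 had 8.54 and 8.73 TPM in WT and 3.64 and 3.26 in HMCES-KO, a change of -1.12 ± 0.15 (adjusted p = 0.0098). In each of these 3 genes both knockout libraries lay far below both WT libraries and close to each other. Syce1 had 20.4 and 17.1 TPM in WT and 11.4 and 8.52 in HMCES-KO (-0.86 ± 0.17). Syce2 went the other way, from 108 and 111 TPM in WT and 135 and 138 in HMCES-KO (0.31 ± 0.05), whereas it had been lower in KO8 of the count table. Dmc1 was the recombination gene that passed, with 4.35 and 6.4 TPM in WT and 2.59 and 2.28 in HMCES-KO (-0.88 ± 0.22 (adjusted p = 0.0492)). Hsf2bp had 98.4 and 91.6 TPM in WT and 97.1 and 106 in HMCES-KO, which overlap, and Rec114 had 1.37 and 2.45 TPM in WT and 1.63 and 1.52 in HMCES-KO, which overlap as well.

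Among piRNA genes, Piwil4 had 3.03 and 2.63 TPM in WT and 0.35 and 1.02 in HMCES-KO (-1.21 ± 0.28 (adjusted p = 0.0388)), Mov10l1 had 11.5 and 10.7 TPM in WT and 6.32 and 4.65 in HMCES-KO (-0.92 ± 0.17 (adjusted p = 0.0218)) and Piwil2 had 15.4 and 13.5 TPM in WT and 9.49 and 8.65 in HMCES-KO (-0.61 ± 0.13). None of these 3 overlapped between genotypes. Piwil4 reached 1 TPM in both libraries only in WT, so it entered the test through WT alone. Tex19.1 had 47.2 and 47.4 TPM in WT and 33.9 and 33.9 in HMCES-KO, a change of -0.47 ± 0.06 (adjusted p = 0.0098), with replicates nearly equal. Of the germ cell factors, Dazl, an RNA-binding translational regulator, had 5.4 and 5.73 TPM in WT and 1.55 and 2.61 in HMCES-KO (-1.11 ± 0.23 (adjusted p = 0.0276)), Sohlh2 had 14.5 and 17.1 TPM in WT and 9.56 and 11.2 in HMCES-KO (-0.56 ± 0.14), and Ddx4, an RNA helicase and germ cell marker, had 24.6 and 22.6 TPM in WT and 17.6 and 18.3 in HMCES-KO. Kit had 58.8 and 60.3 TPM in WT and 40.3 and 42.4 in HMCES-KO (-0.51 ± 0.06 (adjusted p = 0.00777)). All 4 lay below WT in both knockout libraries.

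Dnd1, which protects mRNAs in primordial germ cells, rose from 32.3 and 32.6 TPM in WT and 40.9 and 40.6 in HMCES-KO (0.32 ± 0.07); 76 bases of its exons overlap Wdr55 on the opposite strand. Nanos3 and Rpl10l, which rose in the count table, did not pass here. Nanos3 had 17.4 and 18.2 TPM in WT and 15 and 7.38 in HMCES-KO, both below WT (-0.70 ± 0.29 (adjusted p = 0.154)). Rpl10l had 80.3 and 86.6 TPM in WT and 78.2 and 82.6 in HMCES-KO, which overlap (-0.05 ± 0.06 (adjusted p = 0.602)). The 8 endoderm markers summed to 49.5 to 51.9 TPM in WT and to 33.5 to 33.6 TPM in the 2 HMCES-KO libraries here.

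**Figure D3:**
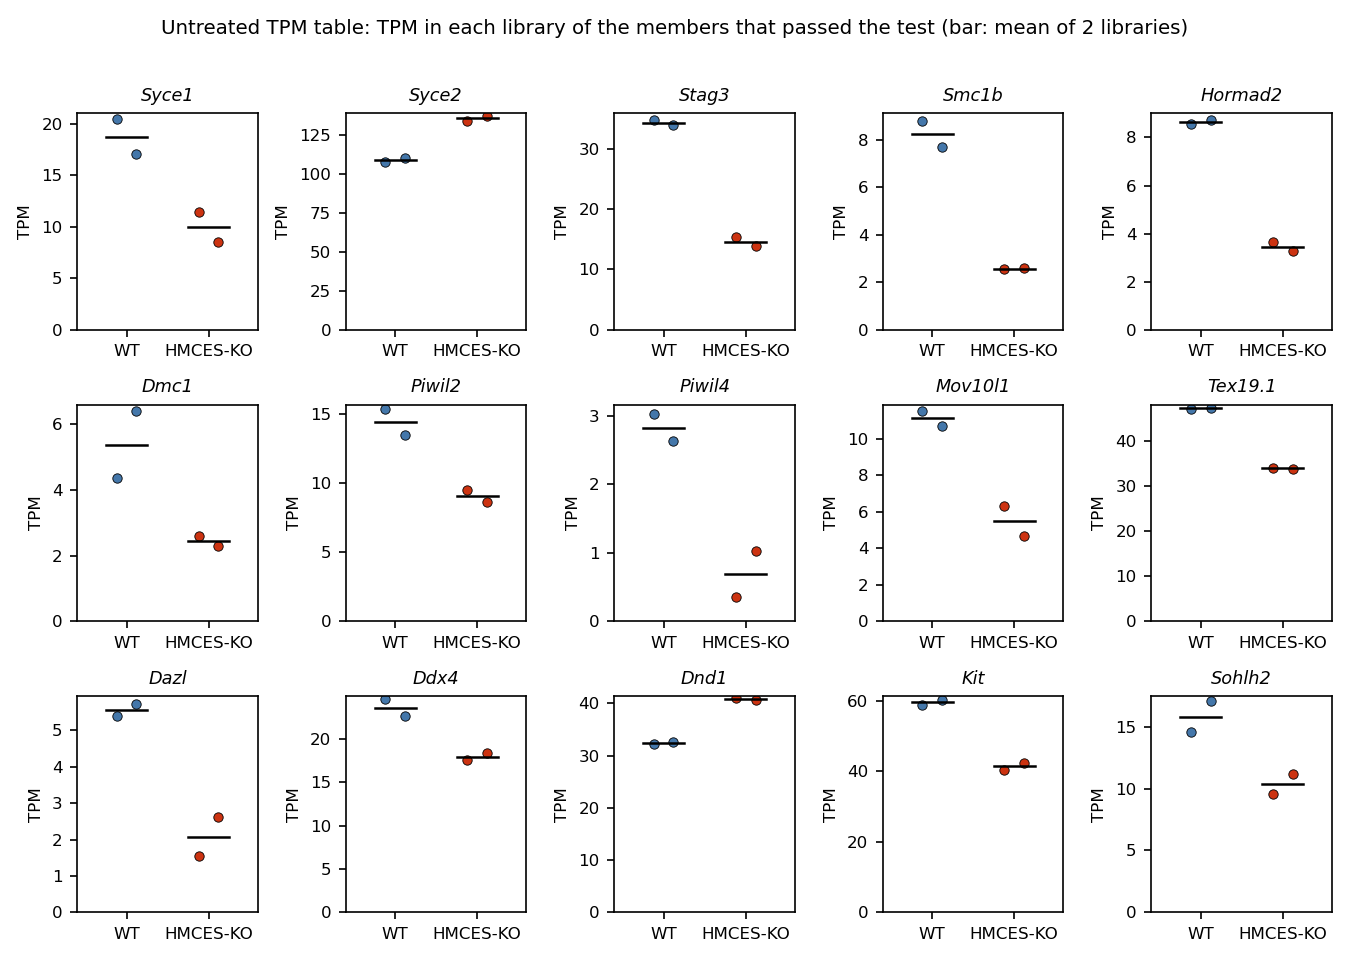
TPM by library (2 WT, 2 HMCES-KO) in untreated cells for the 15 germline genes that passed the test there; points are libraries, the bar is the mean of 2, and each vertical axis starts at 0. In 13 genes both knockout libraries are below both WT libraries, and in Syce2 and Dnd1 both are above.

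After 2 h of treatment, the mean over the 4 treatments again showed more members lower than higher in HMCES-KO. Of 35 tested members, 15 passed, 4 higher and 11 lower, where 34.5% of the 12608 genes tested passed, 20.7% as lower and 13.8% as higher. The median was -0.25 for the members and -0.04 for all genes. EdgeR on recovered reads called 14 of 32 members and 37% of all genes. The same 2 knockout lines recur in all 4 tables, so the 8 knockout libraries are not independent. With the line as a term 17 members and 40% of all genes passed. That term takes the difference between the lines out of the spread, so it does not allow for there being only 2 lines. For the tests, treated levels were rescaled over the 12928 genes that all 4 tables list, whereas treated TPM by library are given as deposited. After the medians of the lengths were aligned, 13.1% of the genes had an implied length within 5% of that in the count table. This share depends on the alignment and may understate how many lengths are the same. Sycp1, Syce1, Mael, Tdrd1, Ddx4 and Nanos3 shared 1 ratio of implied to count table length, 0.932, which lies outside the 5%. Ratios of the members ran from 0.454 for Mei4 to 1.897 for Hormad2, so treated and untreated levels are not compared.

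Rec114 showed one of the largest falls. It ran from 4.54 to 13.6 TPM (median 8.21) in the 8 WT libraries and 0.465 to 3.82 (median 1.36) in the 8 HMCES-KO libraries, a log2 fold change of -1.89 ± 0.17 (adjusted p = 5.66e-06). In the LDN193189 table it had 10.8 and 8.4 TPM in WT, 0.977 in HMCES-KO1 and 0.482 in HMCES-KO2, in the activin A table it had 13.6 and 9.35 TPM in WT, 1.12 in HMCES-KO1 and 2.34 in HMCES-KO2, and in the BMP4 table it had 5.31 and 4.54 TPM in WT, 2.42 in HMCES-KO1 and 3.82 in HMCES-KO2. Both knockout lines lay below both WT libraries in all 4 tables. Syce3 ran from 14.7 to 27 TPM (median 16.8) in the 8 WT libraries and 0.93 to 9.1 (median 3.22) in the 8 HMCES-KO libraries, a change of -2.1 ± 0.33 (adjusted p = 3.74e-04), and Syce1 from 14.1 to 23.4 TPM (median 17.6) in the 8 WT libraries and 7.32 to 12.7 (median 10.3) in the 8 HMCES-KO libraries, a change of -0.77 ± 0.13 (adjusted p = 6.99e-04). Neither overlapped over all 16 libraries. Hormad2 ran from 0.911 to 3.99 TPM (median 2.89) in the 8 WT libraries and 0 to 2.06 (median 1.03) in the 8 HMCES-KO libraries and changed by -0.79 ± 0.18 (adjusted p = 0.00381), but in the BMP4 table both knockout lines lay above WT.

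Of the piRNA genes, Tex15 ran from 3.92 to 8.58 TPM (median 6.7) in the 8 WT libraries and 1.91 to 4.66 (median 2.66) in the 8 HMCES-KO libraries (-0.96 ± 0.16 (adjusted p = 4.76e-04)), Mov10l1 from 2.24 to 4.3 TPM (median 3.67) in the 8 WT libraries and 0.269 to 2.57 (median 1.47) in the 8 HMCES-KO libraries (-0.90 ± 0.22 (adjusted p = 0.00709)), and Piwil2 from 2.28 to 5.79 TPM (median 4.01) in the 8 WT libraries and 1.36 to 3.39 (median 2.05) in the 8 HMCES-KO libraries (-0.63 ± 0.17). Mov10l1 and Piwil2 were below WT in both lines of all 4 tables, and Tex15 in 3. Mael ran from 3.27 to 9.96 TPM (median 6.12) in the 8 WT libraries and 0.317 to 5.36 (median 3.28) in the 8 HMCES-KO libraries (-1.0 ± 0.27 (adjusted p = 0.0116)) and Fkbp6 from 1.44 to 7.6 TPM (median 2.82) in the 8 WT libraries and 0 to 5.87 (median 0.999) in the 8 HMCES-KO libraries (-0.96 ± 0.29 (adjusted p = 0.0199)). Fkbp6 depended on the pair of tables: in the BMP4 and LDN193189 tables alone its log2 fold change was 0.11 (adjusted p = 0.894). Tex19.1 ran from 252 to 553 TPM (median 381) in the 8 WT libraries and 139.6 to 331 (median 224) in the 8 HMCES-KO libraries, a change of -0.74 ± 0.16 (adjusted p = 0.00255). Tex19.2, its close relative, passed as well (-1.06 ± 0.22 (adjusted p = 0.00256)), and reads could be shared between them.

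Hsf2bp rose in every treated table. It ran from 59.8 to 78.2 TPM (median 68.1) in the 8 WT libraries and 115 to 166 (median 136) in the 8 HMCES-KO libraries, a log2 fold change of 1.0 ± 0.10 (adjusted p = 1.1e-05). The lowest knockout library was above the highest WT library, and HMCES-KO1 was above HMCES-KO2 in each table. Rpl10l ran from 225 to 284 TPM (median 246) in the 8 WT libraries and 342 to 1007 (median 619) in the 8 HMCES-KO libraries, a change of 1.23 ± 0.21 (adjusted p = 5.17e-04), again without overlap, and here HMCES-KO2 was above HMCES-KO1 in each table. Rpl10 itself did not pass in this mean (-0.38 ± 0.16 (adjusted p = 0.0803)), but it passed as lower in HMCES-KO2 against WT (-0.52 ± 0.17 (adjusted p = 0.0289)) and in the untreated TPM table (-0.31 ± 0.07 (adjusted p = 0.0308)). Nanos3 ran from 22.2 to 49.6 TPM (median 28.8) in the 8 WT libraries and 24.7 to 95.6 (median 59.3) in the 8 HMCES-KO libraries (0.83 ± 0.18 (adjusted p = 0.00352)) and Dnd1 from 39.1 to 59.9 TPM (median 45.8) in the 8 WT libraries and 44.1 to 74.6 (median 62) in the 8 HMCES-KO libraries (0.31 ± 0.10), both with overlap.

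Within single treatments fewer members passed. In the activin A table, 8 did (3 higher, 5 lower; 12.1% of all genes passed, 7.03% as lower and 5.1% as higher), and leaving out single libraries gave 3 to 11 (4.03% to 14.1% of all genes). In the SB431542 table, 10 did (3 higher, 7 lower; 12.1% of all genes, 6.73% as lower and 5.41% as higher), with 3 to 10 when single libraries were left out (3.49% to 14.2% of all genes). Hsf2bp rose and Msh4 fell in the BMP4 table, where 6.33% of all genes passed (4.2% lower, 2.13% higher), and Hsf2bp rose and Rec114 fell in the LDN193189 table, where 2.29% passed (1.5% lower, 0.793% higher). With the BMP4 libraries left out in turn, 0 or 1 member passed in the BMP4 table. The largest falls under SB431542 were Fkbp6 (-2.43 ± 0.57 (adjusted p = 0.0158)), Rec114 (-2.21 ± 0.35 (adjusted p = 0.00185)), Hormad2 (-1.96 ± 0.35 (adjusted p = 0.00409)), Mael (-1.94 ± 0.54) and Sohlh2 (-1.68 ± 0.25 (adjusted p = 0.00149)). Under activin A they were Syce3 (-2.25 ± 0.67 (adjusted p = 0.0434)), Rec114 (-2.21 ± 0.35 (adjusted p = 0.00182)) and Sohlh2 (-1.53 ± 0.25 (adjusted p = 0.00244)).

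Sohlh2 was the member whose genotype difference itself differed between the pairs of tables. In the activin A table it had 14.8 and 19.4 TPM in WT, 5.76 in HMCES-KO1 and 4.7 in HMCES-KO2, and in the SB431542 table it had 17.7 and 21.2 TPM in WT, 4.98 in HMCES-KO1 and 5.72 in HMCES-KO2. In the BMP4 table it had 10 and 11.1 TPM in WT, 8.22 in HMCES-KO1 and 8.53 in HMCES-KO2, and in the LDN193189 table it had 8.78 and 12.6 TPM in WT, 6.32 in HMCES-KO1 and 10.1 in HMCES-KO2. The difference in log2 fold change between the pairs was -1.28 ± 0.25 (adjusted p = 0.0353), the 1 call among 35 members, where 0.872% of all genes passed (0.46% with a lower and 0.412% with a higher value). The WT libraries of Sohlh2 were themselves higher in the activin A and SB431542 tables. Each treatment is its own table, made separately, so treatment and table cannot be told apart. Tex19.1 had 478 and 553 TPM in WT, 204 in HMCES-KO1 and 321 in HMCES-KO2 under activin A, 546 and 511 TPM in WT, 197 in HMCES-KO1 and 331 in HMCES-KO2 under SB431542, 261 and 284 TPM in WT, 139.6 in HMCES-KO1 and 243 in HMCES-KO2 under BMP4 and 252 and 273 TPM in WT, 152 in HMCES-KO1 and 276 in HMCES-KO2 under LDN193189. Its WT levels were also higher in the first pair of tables, and its difference between the pairs did not pass (-0.57 ± 0.31 (adjusted p = 0.458)). With only the BMP4 and LDN193189 tables, 4 members and 7.42% of all genes passed in the mean.

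The ligands and inhibitors were compared directly, as the treatments of the study imply. No member passed in activin A against SB431542 over both genotypes by limma (0 of 35; 2 at an unadjusted p below 0.05, Hormad2 and Nanos3), where 0.0872% of all genes passed, nor in BMP4 against LDN193189 (0 of 35; 0 at an unadjusted p below 0.05), where 0.0238% passed. EdgeR on the recovered reads also called 0 members in either. These levels come from tables made separately. The genotype difference did not differ by limma between activin A and SB431542 for any member (0 called, Mael at an unadjusted p below 0.05; 0% of all genes) or between BMP4 and LDN193189 (0 called; Hormad2, Msh4 and Rec114 at an unadjusted p below 0.05; 0% of all genes), and edgeR on recovered reads called 0 in both. The Rec114 estimate between BMP4 and LDN193189 was 2.08 ± 0.49 (adjusted p = 0.76), and the median SE of such a difference over the members was 0.56 log2 units.

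The lines also differed after treatment. In HMCES-KO2 against HMCES-KO1, with treatment as a term, 9 of 35 members passed, 2 higher and 7 lower, where 6.58% of all genes passed, 2.7% as lower and 3.89% as higher. Rpl10l (1.02 ± 0.12 (adjusted p = 1.18e-04)) and Tex19.1 (0.76 ± 0.12 (adjusted p = 0.00111)) were higher in HMCES-KO2. Hormad1, an axis protein, was lower by the largest amount (-1.34 ± 0.26 (adjusted p = 0.00452)), with 1.33 and 1.34 TPM in WT, 2.74 in HMCES-KO1 and 0.357 in HMCES-KO2 under activin A and 0.775 and 2.2 TPM in WT, 3.28 in HMCES-KO1 and 0.589 in HMCES-KO2 under LDN193189. Mov10l1 (-0.81 ± 0.22), Tex14 (-0.81 ± 0.18), Kit (-0.61 ± 0.15), Syce2 (-0.50 ± 0.12), Hsf2bp (-0.45 ± 0.07) and Dnd1 (-0.38 ± 0.11) were lower too. Of 34 members tested both here and in KO8 against KO7, 7 passed in both and all 7 had the same sign: Tex14, Syce2, Hsf2bp, Kit and Mov10l1 lower and Rpl10l and Tex19.1 higher. They were 87.5% of the 8 members that passed between HMCES-KO2 and HMCES-KO1 and 43.8% of the 16 between KO8 and KO7, against 80.6% and 18.3% over all genes tested in both. Against WT, 13 members passed in HMCES-KO1 (32.7% of all genes; 20.3% as lower and 12.4% as higher) and 16 in HMCES-KO2 (28.9%; 16.6% as lower and 12.2% as higher).

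The 3 data sets share no library, but the labels name the same 2 knockout lines for the count table and the treated tables. The line of the untreated TPM table is not stated. Likeness between the data sets can thus come from the same lines measured again. They were set side by side for the 34 members tested in all 3. Of these, 23 (67.6%) had a log2 fold change below 0 in all 3, against 21.7% of 11736 genes, and 2, Dnd1 and Hsf2bp, were above 0 in all 3. Called lower in all 3 were 6 members (17.6%, against 1.83% of all genes): Hormad2, Mov10l1, Piwil2, Sohlh2, Syce1 and Tex19.1, the last with KO8 as the exception given above. None was called higher in all 3. These 6 include synaptonemal and axis genes as well as piRNA genes and 1 transcription factor. In the untreated TPM table none of the 6 kept its call under every alternative. Hormad2, Mov10l1, Syce1 and Tex19.1 lost theirs in the count table with the 4 knockout libraries as 1 group. In the BMP4 and LDN193189 tables alone only Syce1 of the 6 kept its call. The list of members was chosen with earlier results of these data known. Dmc1 was called lower in both untreated data sets but had 0.25 ± 0.28 (adjusted p = 0.53) in the treated tables. Stag3, Smc1b and Piwil4 were likewise called lower in both untreated data sets and did not pass by limma in the mean of the 4 treatments, at -0.35, -0.42 and -0.32. Stag3 did pass as lower in treated HMCES-KO2 against WT (-0.61 ± 0.20 (adjusted p = 0.0297)), and in the activin A table by edgeR on recovered reads.

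The 11 members that were tested and passed in none of the 3 main comparisons were Sycp1, Sycp2, Hormad1, Msh4, Mei4, Tdrd1, Tdrd5, Tdrd7, Stk31, Taf7l and Slc25a31. Tdrd1, a Tudor scaffold of the piRNA pathway, had 4.12 and 3.9 CPM in WT, 3.7 and 4.22 in KO7, and 4.39 and 4.23 in KO8, and its libraries overlapped (0.10, -0.01 and -0.23 in the 3 data sets). Stk31 was below 0 in all 3 (-0.49, -0.62 and -0.41). It was called lower in KO8 against WT, in treated HMCES-KO2 against WT and, like Sycp2, by edgeR on recovered reads of the untreated TPM table. A p above the threshold does not show that these genes did not differ.

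Members were spread over the genome, and on chromosome 15, 5 of them (Dmc1, Mei1, Smc1b, Mov10l1 and Syce3) lay between 79.6 and 89.4 Mb of mm10. The 4 tested had a median log2 fold change of -1.21 in the count table. The 123 other genes tested in that interval had a median of -0.15, and that of all genes was -0.01. Of the 123, 43.1% passed, 41 as lower and 12 as higher. Over all genes 40.6% passed, 20.8% as lower and 19.9% as higher. The untreated TPM table tested 115 such neighbours, with 21 lower and 3 higher (10.2% and 5.8% of all genes). In the treated mean, 33 of 109 were lower and 14 higher (20.7% and 13.8% of all genes). The part of this interval in the changes of its members was not tested.

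Genes known to regulate germline genes were counted from a list of 26, none of them members. In the count table, 16 were called higher and 1 lower (40.6% of all genes passed), in the untreated TPM table, 0 higher and 8 lower by limma (16%; 4 higher and 8 lower by edgeR on recovered reads), and in the treated tables, 8 higher and 5 lower (34.5%). Called higher in both the count table and the treated tables were Dnmt1, the maintenance DNA methyltransferase (0.21 ± 0.05 and 0.29 ± 0.06), Setdb1, a histone H3 lysine methyltransferase (0.48 ± 0.05 and 0.22 ± 0.05), and L3mbtl2, a subunit of the E2F6 polycomb complex (0.26 ± 0.05 and 0.57 ± 0.05). Ring1 (0.33 ± 0.11 and 0.40 ± 0.12), Hdac2 (0.28 ± 0.05 and 0.44 ± 0.10) and Prdm1, a repressor needed for primordial germ cells (0.87 ± 0.14 and 0.82 ± 0.17), did the same. In the untreated TPM table limma called Setdb1 lower (-0.21 ± 0.04) and did not call the other 5, whereas edgeR on recovered reads called Setdb1 and Dnmt1 lower and Hdac2 and Prdm1 higher there. Tet1 and Tet2, enzymes that oxidise 5-methylcytosine, were called higher in the count table (0.18 ± 0.05 and 0.24 ± 0.05) but lower in the untreated TPM table (-0.27 ± 0.05 and -0.18 ± 0.04) and after treatment (-0.80 ± 0.07 and -0.73 ± 0.14). Ehmt1, a histone H3 lysine methyltransferase, was likewise higher in the count table (0.22 ± 0.06) and lower after treatment (-0.38 ± 0.10). These values of the count table are means of its lines, and Ring1, Tet2 and Ehmt1 were called higher in KO7 but not in KO8. Tet2 had 294 and 311 CPM in WT, 390 and 404 in KO7, and 314 and 279 in KO8. The other regulators named here were called higher in both lines. The part of these regulators in the levels of the germline genes was not tested.

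A further list of 26 genes of the piRNA and meiotic pathways that are no members was counted in the same way. Of 18 tested, 3 were called higher and 5 lower in the count table (40.6% of all genes passed), 1 higher and 3 lower in the untreated TPM table (16%), and 2 higher and 3 lower in the treated mean (34.5%). Stra8, which switches germ cells into meiosis and was chosen for mention after its values were seen, was called lower in all 3 (-1.97 ± 0.20, -1.05 ± 0.13 and -0.46 ± 0.13).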

How the data were processed

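RNA sequencing libraries were analysed from 26 samples in 6 tables. The deposited count table gives raw counts per gene (read pairs), which the authors made with featureCounts 2.0.1 over exons of the mm10 RefSeq annotation, per the file headers. The other 5 tables held TPM, computed by the authors and deposited without counts. The submitters' processing notes also name DESeq2, Bowtie2 2.3.3, FastQC 0.11.5 and SAMtools 1.9. A strand setting and the filter of genes in the treated tables are not given in the sources used here. The members and gene lists were chosen with earlier results of these data known.

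Counts were tested with edgeR 4.0.16 (TMM, filterByExpr, quasi-likelihood test) over 6 libraries in 3 groups of 2. TPM values were tested with limma 3.58.1 (trend) on log2(TPM + 1), over genes with at least 1 TPM in at least 2 libraries. The treated libraries were rescaled to a common total over the 12928 genes listed in all 4 tables and fitted in 8 groups of 2. P-values were Benjamini-Hochberg adjusted over all genes, and a call is an adjusted p below 0.05. Errors of log2 fold changes are standard errors. CPM used the total counts of a library. Whole reads were recovered from TPM, with 100% of untreated values whole within 0.05 reads and 99.98% or more of treated genes solved; edgeR on them was an added alternative. Replicates of a group differed by more than counting noise, so none was counted as the same library. In the count table the chi-square per degree of freedom between the 2 libraries was 4.925 for WT, 1.617 for KO7 and 1.63 for KO8. The 3 groups shared 1 estimate of the spread, which may be too small for WT. Values by library are given for each member called in the 3 mean comparisons and for the 5 with the highest WT mean TPM, and errors for the 12 largest changes per comparison among called members; regulators of germline genes are named where called in both the count table and the treated mean. The tests were tried on simulated data. DESeq2 1.42.0, RLE size factors in edgeR, the 4 knockout libraries as 1 group, other filters, limma without trend, a pseudocount of 0.1, the replicate number as a block and leaving out each library were the alternatives. Recovered reads, the knockout line as a term, the pairs of treated tables taken alone and the comparison of those pairs were added after the data had been seen. Sequences were read from RefSeq promoters.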

Additional observations from a re-analysis of the deposited data

Results flagged for a closer look

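The knockout lines of the count table differed from each other at 16 of 39 germline genes, where 28.2% of all genes passed. With 1 WT group for both lines, a line-dependent effect of the knockout and other differences between the lines cannot be told apart. In KO8 minus KO7 the log2 fold changes were -0.94 for Tex14, -0.52 for Syce2, -0.19 for Hsf2bp, -0.40 for Ddx4, -0.77 for Kit, -0.91 for Dmc1, -0.44 for Stag3 and -0.70 for Tdrkh. They were -1.43 for Fkbp6, -1.27 for Hormad2 and -0.84 for Mov10l1. The other 5 genes were higher in KO8, by 1.07 for Nanos3, 1.13 for Tdrd5, 0.74 for Mei4, 0.90 for Rpl10l and 1.33 for Tex19.1.

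HMCES-KO2 and HMCES-KO1 differed at 9 of 35 germline genes over the 4 treated tables, where 6.58% of all genes passed. In HMCES-KO2 minus HMCES-KO1 the log2 fold changes were -0.38 for Dnd1, -1.34 for Hormad1, -0.45 for Hsf2bp, -0.61 for Kit, -0.81 for Mov10l1, -0.50 for Syce2 and -0.81 for Tex14, and they were 1.02 for Rpl10l and 0.76 for Tex19.1.

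Sohlh2 was picked out because its genotype difference was more negative in the activin A and SB431542 tables than in the BMP4 and LDN193189 tables, with a difference of -1.28 on the log2 scale. That comparison was added after the data had been seen. No knockout library of the count table stood apart from the other 3 for any tested member by Dixon's ratio at the 95% level.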

How the results depend on the processing

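In the count table, 16 of the 23 members called in the mean of the lines kept their call when each library was left out in turn, and 8 kept it under every alternative, those being Hsf2bp, Sohlh2, Piwil4, Stag3, Piwil2, Rpl10l, Smc1b and Tex15. The count was 8 with the 4 knockout libraries as 1 group (11.5% of all genes). DESeq2 called 15 members in KO8 against WT (21.9% of all genes) and 9 in KO8 against KO7 (15.3%). Leaving out 1 library gave 8 to 18 members in KO8 against KO7 and 16 to 26 in KO8 against WT.

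In the untreated TPM table, Stag3 and Smc1b kept their call under all alternatives. Of all genes, 7.41% passed there without a filter and 2.55% without the limma trend. The count was 7 without a filter, 3 without the limma trend, and 3 to 12 when 1 library was left out, where the arm with 1 library is assumed to vary like the other. In the treated mean, Hsf2bp, Rec114, Syce1 and Syce3 kept their call under all alternatives in which they were tested. The count was 9 with TPM of at least 1 required in every library (19 members tested, 41.1% of all genes passed). It was 4 in the BMP4 and LDN193189 tables alone (7.42% of all genes), and Fkbp6 turned to 0.11 in those 2 tables. The cause was not tested.

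Within single treatments, activin A gave 5 members without the trend, 13 with the knockout line as a term, and 3 to 11 with 1 library left out. SB431542 gave 6 under the stricter filter, 6 without the trend, and 3 to 10 with 1 library left out. BMP4 gave 1 under the stricter filter, 1 with edgeR on recovered reads, 4 with the line as a term, and 0 to 2 with 1 library left out. LDN193189 gave 1 under the stricter filter, 1 without the trend, 6 with the line as a term, and 1 to 3 with 1 library left out. HMCES-KO2 against HMCES-KO1 gave 4 to 9 with 1 library left out (3.76% to 6.43% of all genes). The shares of all genes under the other settings were as follows. Activin A gave 9.07% without the trend and 18.3% with the line as a term. SB431542 gave 15.6% under the stricter filter and 8.77% without the trend. BMP4 gave 8.78% under the stricter filter, 7.95% with edgeR on recovered reads and 11.7% with the line. LDN193189 gave 3.2% under the stricter filter, 0.682% without the trend and 5.96% with the line.

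Same-numbered WT and knockout libraries of the same table did not deviate together (correlations from -0.070 to 0.0077), so the numbers do not pair them. Knockout libraries of the same number did, at 0.35 to 0.47 between treated tables, since each number there is 1 line. With the line as a term, 17 members and 40% of all genes passed in the treated mean. With the replicate number as a block, 24, 12 and 16 members were called in the count table, the untreated TPM table and the treated mean. The shares of all genes were 40.6%, 14.6% and 35.9%. Of 53 calls of members 3 were lost: Ddx4, Piwil4 and Dmc1 in the untreated TPM table. The low counts of Syce3, Msh5 and Brdt limit their precision, and levels of genes under 1 TPM were mostly not tested.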
